A study of Mus musculus with 14 samples.

Results

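Oxidative phosphorylation genes were followed in bulk RNA sequencing of dorsal root ganglia from mice. These ganglia lie beside the spinal cord and contain sensory neuron bodies together with glia and connective tissue. Members were all rows whose symbol names a subunit of complexes I to V: the Nduf, Uqcr, Cox4 to Cox8, Atp5 and Sdh families of the nuclear genome and the protein genes of mitochondrial DNA (mtDNA). They numbered 95 of 20833 rows in the p75 table (82 nuclear and 13 mt-encoded) and 118 of 56691 rows in the 5xFAD table (105 nuclear and 13 mt-encoded). In all, 93 symbols were in both tables, 2 in the p75 table alone and 24 in the 5xFAD table alone. After a filter on low counts, 92 and 100 members were tested. Of the 118 rows of the 5xFAD table, 14 carried pseudogene (-ps) symbols and 8 had no count. Complexes were assigned by symbol prefix alone, which counts Ndufa4 and Ndufa4l2 under complex I and Cox7a2l under complex IV.

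The p75 table held 3 libraries labelled P75f/f-knockout and 3 labelled P75f/f. P75f/f denotes floxed alleles of Ngfr, the p75 neurotrophin receptor gene. The knockout columns carry the name P75-Adv, whose meaning is not given, and no Cre driver is named. Ngfr itself averaged 28.3 ± 8.28 CPM in knockout and 114.9 ± 20.7 CPM in floxed libraries (SD, n = 3 each; CPM, counts per 1000000, with library sizes scaled by the trimmed mean of M values, TMM). The 5xFAD table held 4 libraries labelled 5xFAD-MUTANT and 4 labelled wild type. 5xFAD is a transgenic mouse model of Alzheimer disease whose transgenes are driven by the Thy1 promoter. Age and sex were not given. Whether replicates are separate animals is not stated, so the p-values describe only how these samples vary, and that variation may be technical. Total counts were 4731119 to 6052690 per library in the p75 table and 13907070 to 19837836 in the 5xFAD table. Each table was tested alone, and levels were not compared between them.

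The labelled cell type is sensory neuron, and the markers were those of a mixed ganglion. The summed level of 8 Schwann cell markers was 3906 to 5468 CPM in 5xFAD libraries and 2063 to 3927 CPM in wild-type libraries. For 15 pan-neuronal markers it was 1217 to 1383 CPM in 5xFAD and 619.7 to 814 CPM in wild-type libraries. Skeletal muscle markers were near 0, at most 12.9 CPM summed over the list in any library. In such bulk samples, fewer cells of a type and less RNA per cell cannot be told apart.

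Oxidative phosphorylation passes electrons from NADH and succinate through complexes I to IV, and complex V uses the resulting proton gradient to make ATP. mtDNA encodes the core membrane subunits of complexes I, III, IV and V, and nuclear genes encode every other subunit, including all of complex II. The mt-encoded genes are transcribed into long polycistronic transcripts, so their RNA levels also depend on processing and stability. Sensory neurons are known for a high energy demand along their axons.

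Nuclear copies of mtDNA limit the counting of some mt-encoded genes. In the reference transcripts (GENCODE M21), 7 of the 13 had a near-identical copy (at least 99% identity over at least 100 bases) among annotated unprocessed pseudogenes on chromosome 1. The copies of mt-Co2, mt-Atp6, mt-Co3 and mt-Nd4l were identical over 681, 678, 783 and 294 bases. That of mt-Nd4 was identical over its first 876 bases. mt-Nd3, a subunit of complex I, differed from its copy by T3C, counted from 1 at the first base of the gene with the gene's base first. mt-Co1, the catalytic subunit of complex IV, differed from its copy by A1066T over its last 483 bases. These windows show how little parts a gene from its copy, with the differing base in capitals, 5′ to 3′.
mt-Nd3: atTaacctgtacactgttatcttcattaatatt
Gm28438 (copy): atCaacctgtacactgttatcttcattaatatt
mt-Co1: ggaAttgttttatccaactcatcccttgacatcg
Gm29216 (copy): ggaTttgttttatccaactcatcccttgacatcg

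The mt-encoded genes fell into an abundant and a scarce set. Per kb of gene length, mt-Co1 stood highest at 9381 ± 456 CPM per kb in 5xFAD libraries and 8554 ± 308 CPM per kb in wild-type libraries (SD, n = 4 each), followed by mt-Cytb of complex III at 6855 ± 449 and 6262 ± 282 CPM per kb. The complex I genes mt-Nd1, mt-Nd2, mt-Nd5, mt-Nd4 and mt-Nd6 had means between 1605 and 3688 CPM per kb. A gap followed: mt-Co2 had 61.9 ± 5.08 and 65.8 ± 11.3 CPM per kb, and mt-Nd3 only 3.45 ± 0.582 and 3.84 ± 1.6 CPM per kb, in 5xFAD and wild-type libraries. All 5 genes with a copy over nearly their whole length lay in the scarce set, as did mt-Atp8, which overlaps mt-Atp6 by 43 bases. How reads that fit both gene and copy were assigned is not given in the sources used here, so the scarce genes' levels are uncertain. The copies' own means were 1.48 to 31.5 CPM. In the p75 table mt-Co2 was likewise scarce, at most 4.11 CPM, while mt-Nd3 had 142 to 809 CPM in knockout and 147 to 506 CPM in floxed libraries.

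**Figure D1:**
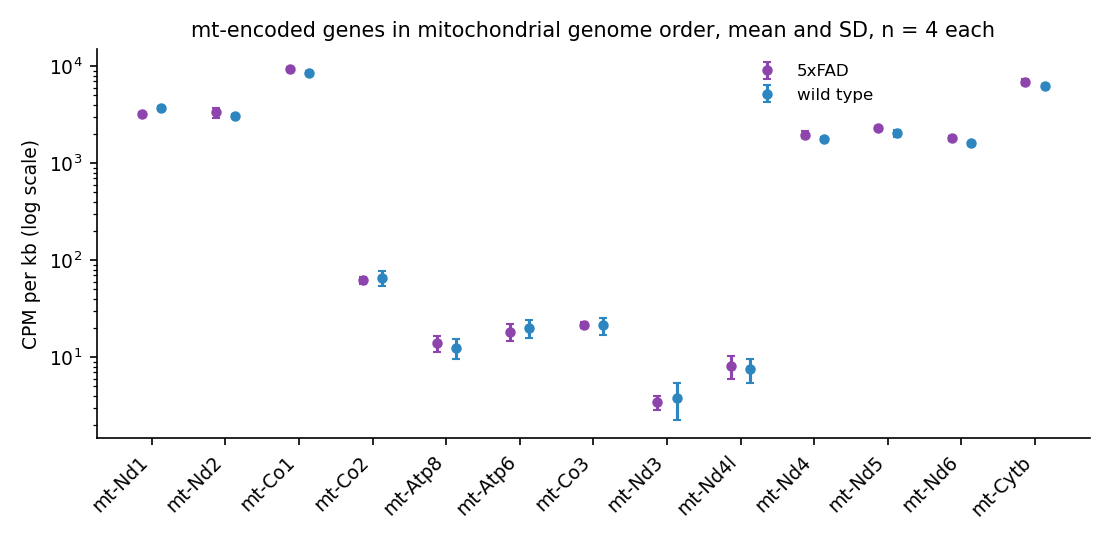
Level of each mt-encoded gene in the 5xFAD table (CPM per kb, log scale), in the order of the mitochondrial genome, with points for group means and bars for SD (n = 4 each). The stretch from mt-Co2 to mt-Nd4l lies far below the genes on either side in both genotypes.

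In the p75 table no member differed between knockout and floxed libraries by the test, and the replicates parted more than the genotypes. The edgeR quasi-likelihood test called 0 of 92 members (adjusted p threshold 0.05), beside 0 of 11890 genes, or 0.0%. Ngfr was thus not called either, although its mean was lower in knockout libraries. A count of 0 called members therefore does not show that the members were unchanged. At an unadjusted p under 0.05 stood 1 member and 140 genes (1.18%). DESeq2 called 0 members and 6 genes (0.0505%), and limma-voom called none of either. The median log2 fold change of knockout over floxed was 0.14 over the 82 nuclear members, of which 60 lay above 0. It was 0.20 over the 10 tested mt-encoded members and 0.02 over all genes. By complex the nuclear medians were 0.13 for I, -0.05 for II, 0.21 for III, 0.15 for IV and 0.06 for V. Both directions depended on single libraries. The nuclear median was -0.23 without knockout replicate 3, -0.05 without floxed replicate 2 and 0.39 without floxed replicate 3. The mt-encoded median was 0.63 without knockout replicate 3, -0.03 without knockout replicate 1 and -0.06 without floxed replicate 3. In replicates 1 and 2 alone the nuclear median was 0.06 and the mt-encoded median 0.37. There 12 of 12 mt-encoded members lay above 0, some on few counts. mt-Co2, for example, had 20 and 18 counts in knockout and 9 and 11 in floxed libraries. In this subset 0 members were called beside 0.0499% of genes. Over all libraries, the mt-encoded median was 0.09 without members with copies, 0.12 at a minimum mean CPM of 5 and 0.06 with limma-voom.

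Counts in the mt-encoded members made up 2.18% ± 1.04 of each knockout library and 2.11% ± 0.696 of each floxed library (SD, n = 3 each). The nuclear members made up 3.59% ± 1.58 and 3.37% ± 1.17. Counting error was at most 0.0182 percentage points (95% Wilson half-width), far below the spread between libraries. The ratio of mt-encoded to nuclear counts was 1.02, 1.05 and 0.181 in knockout replicates 1, 2 and 3, against 0.922, 0.935 and 0.277 in floxed replicates 1, 2 and 3. Replicate 3 had the lowest ratio in both genotypes. Within replicate numbers, the log2 ratio of knockout minus floxed was 0.15, 0.17 and -0.61, so replicate 3 had the opposite direction to replicates 1 and 2.

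**Figure D2:**
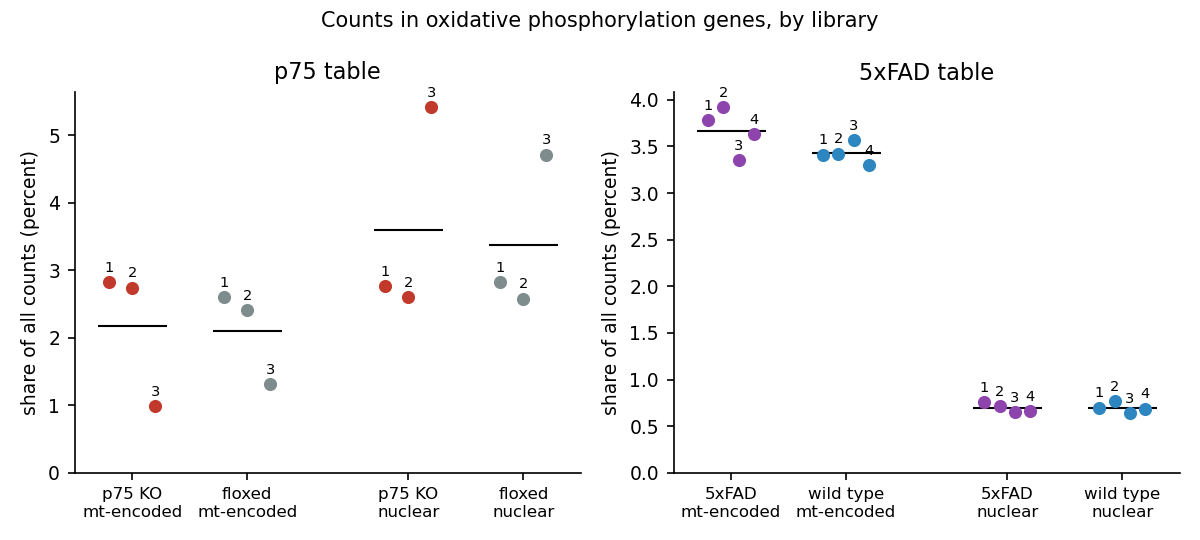
Share of all counts (percent) in mt-encoded and nuclear members for each library of both tables; numbers are replicates and lines are group means. In the p75 table both replicate 3 libraries lie lowest for mt-encoded and highest for nuclear members.

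The replicate 3 libraries stood apart in the pathway. Both lay above the other 4 libraries for 56 of 82 nuclear members, against 23.3% of all genes, and below them for 2. All 10 tested mt-encoded members lay below, against 25.8% of all genes. The median log2 ratio of replicate 3 over replicates 1 and 2 was 0.68 for the nuclear and -1.72 for the mt-encoded members, and -0.01 for all genes. By complex, as set by symbol prefix, 30 of 38 nuclear members of complex I lay above, 1 of 4 of complex II and 6 of 8 of complex III. For complex IV it was 11 of 15 and for complex V 8 of 17. Ndufa4 and Ndufa4l2, both above, were counted under complex I by name alone. This split is a description of these libraries, with no test.

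Cox4i1, the common isoform of the regulatory subunit 4 of complex IV, showed the shift at high counts. It had 1200.1, 1354 and 6676 CPM in knockout replicates 1 to 3, against 1153, 1078 and 6156 CPM in floxed replicates 1 to 3. Ndufs8, a core iron-sulphur subunit of complex I, had 151, 179 and 874 CPM in knockout libraries and 159, 143 and 692 CPM in floxed ones. Ndufb4, an accessory subunit of complex I, had 9.88, 14.9 and 119 CPM in knockout libraries and 14.8, 7.25 and 75.7 CPM in floxed ones. Uqcrq, a small subunit of complex III, had 885, 881 and 2876 CPM in knockout libraries and 746, 699 and 1912 CPM in floxed ones. In each of these 4 genes both replicate 3 libraries were the highest. Cox6a2, the heart and skeletal muscle isoform of subunit 6a, had 1.23, 6.78 and 43.4 CPM in knockout libraries and 0.375, 6.19 and 54.4 CPM in floxed ones. It had the largest ratio of the members, 12-fold, while the muscle markers stayed at or below 12.9 CPM in sum.

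The mt-encoded genes went the other way to unequal degrees. mt-Nd6, the complex I subunit encoded on the opposite strand of mtDNA, had 631, 830.5 and 26.8 CPM in knockout replicates 1 to 3, against 339, 336 and 38.1 CPM in floxed replicates 1 to 3. mt-Co1 had 4111, 4942 and 1303 CPM in knockout libraries and 4199, 3843 and 1461 CPM in floxed ones. mt-Cytb had 4740.1, 6824 and 2581 CPM in knockout libraries and 5423, 4819 and 4143 CPM in floxed ones. Replicate 3 over the others was 0.0616-fold for mt-Nd6 and 0.617-fold for mt-Cytb, the extremes of the set. Whether counting used strand is not stated. If it did not, RNA from the other strand anywhere along mt-Nd6 would count as mt-Nd6. This includes reads of mt-Nd5, which overlaps it by 14 bases. The level of mt-Nd6 and its shift are therefore uncertain.

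Other mitochondrial lists differed in how they compared with the 23.3% of all genes above and 25.8% below. The replicate 3 libraries lay above the others for 52 of 78 mitochondrial ribosomal proteins (3 below), 23 of 50 assembly factors (3 below) and 4 of 8 carriers (0 below). They lay above for 6 of 17 genes of the citric acid cycle (1 below) and 8 of 27 of mtDNA maintenance and expression (1 below). For 10 regulators of mitochondrial biogenesis it was 1 above and 4 below, and for 16 glycolysis genes 4 above and 7 below. Markers of other cells moved as well. Schwann markers summed to 18056, 17903 and 5946 CPM in knockout replicates 1 to 3 and 16466, 15609 and 7674 CPM in floxed replicates 1 to 3. Satellite glia markers summed to 287 CPM in knockout replicate 3 and 151 CPM in floxed replicate 3, against 1259 to 1399 CPM in the other 4 libraries. Fibroblast markers summed to 266 CPM in knockout replicate 3 and 368 CPM in floxed replicate 3, against 1512 to 2024 CPM in the other 4. Pan-neuronal markers followed no such split, at 278, 1548 and 1330.5 CPM in knockout replicates 1 to 3 and 1061, 696 and 815 CPM in floxed replicates 1 to 3. The highest count of any gene was 65377 to 65469 in knockout and 65311 to 65419 in floxed libraries of replicates 1 and 2, a narrow band. It was 56729 in knockout replicate 3 and 50722 in floxed replicate 3. High counts of the p75 table may therefore be compressed. Cox4i1 reached 37877 counts in knockout replicate 3 and 35863 in floxed replicate 3, the highest member count of each. The part of these markers and of such a ceiling in the shift was not tested.

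**Figure D3:**
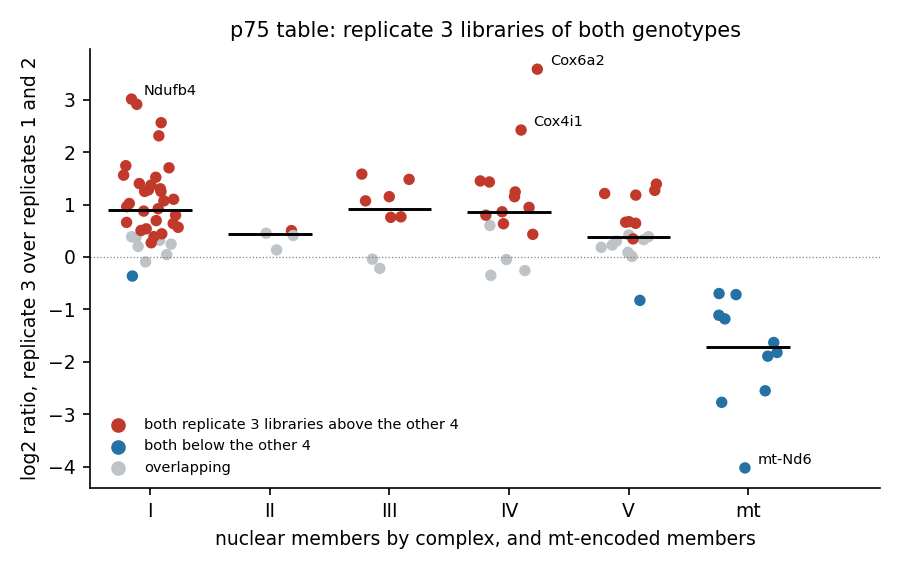
Log2 ratio of the replicate 3 libraries of both genotypes over replicates 1 and 2, for each tested member of the p75 table by complex; lines are medians. Nuclear members lie mostly above 0 (medians 0.39 to 0.92) and all mt-encoded members below it (median -1.72).

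Against this background, 4 of 92 tested members had knockout and floxed libraries that did not overlap, all higher in the knockout and none lower. Of all genes, 2.72% parted as higher and 2.99% as lower. So small a count is near these shares and is not taken as a trait of the members. Cox4i2, the oxygen-responsive isoform of subunit 4, had 3.70, 6.56 and 5.46 CPM in knockout libraries and 0.937, 1.94 and 0.858 CPM in floxed ones. Its log2 fold change was 2.05 (SE 0.72; edgeR unadjusted p = 0.021, adjusted p = 0.9999), and it rests on few counts. Cox7a1, the muscle isoform of subunit 7a, had 22.8, 23.8 and 17.6 CPM in knockout libraries and 11.2, 15.6 and 11 CPM in floxed ones (log2 fold change 0.77, SE 0.38). Uqcrc1, a core protein of complex III, and Ndufb1-ps, a complex I member, had smaller differences (log2 fold changes 0.36 and 0.25). Despite its symbol, Ndufb1-ps was not counted as a pseudogene here. The 5xFAD table holds Ndufb1 and not this symbol. With the replicate number as a block, no member was called either (0.00841% of genes were), and the log2 fold change of Cox4i2 was 2.10. None of the 4 passed the adjusted threshold. The sum of 6 adipocyte markers parted the genotypes in the same direction, though only 1 of them passed the filter on low counts. They summed to 292, 349 and 208 CPM in knockout libraries and 5.62, 64.3 and 136 CPM in floxed ones. Most of this was Fabp4, a fatty acid carrier of adipocytes and endothelium, at 272 ± 63.8 CPM in knockout and 66.9 ± 65.0 CPM in floxed libraries (SD, n = 3 each). Endothelial marker sums overlapped, at 9.67, 9.83 and 60.1 CPM in knockout replicates 1 to 3 and 14.2, 109.6 and 17.2 CPM in floxed replicates 1 to 3. The part of these markers in the 4 differences was not tested.

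Complex II, the succinate dehydrogenase that is also part of the citric acid cycle, had no consistent direction. Sdha, its flavoprotein, averaged 91.1 ± 9.21 CPM in knockout libraries and 107 ± 34.7 CPM in floxed ones (SD, n = 3 each). Sdhb, its iron-sulphur protein, had 92.2, 143 and 117 CPM in knockout libraries and 109, 110.3 and 194 CPM in floxed ones. The membrane anchors Sdhc and Sdhd were at 0.26 (SE 0.35) and 0.13 (SE 0.45) on the log2 fold change scale. In complex V, Atp5a1, the alpha subunit of the catalytic head, had a log2 fold change of -0.37 (SE 0.34), the lowest of the members.

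In the 5xFAD table no member was called by the main test, and the nuclear members had a median near that of all genes. The edgeR quasi-likelihood test called 0 of 100 members, beside 570 of 15845 genes, or 3.6% (406 higher, 2.56%, and 164 lower, 1.04%). At an unadjusted p under 0.05 stood 5 members higher and 1 lower, beside 16.2% of all genes. DESeq2 called 2 members (6.49% of genes) and limma-voom 1 (3.6%). The median log2 fold change was 0.02 over 87 nuclear members, 0.115 over 13 mt-encoded members and 0.00 over all genes. Without 5xFAD replicate 4 the mt-encoded median was 0.03. The nuclear medians by complex were 0.03 for I, -0.03 for II, 0.01 for III, 0.05 for IV and -0.01 for V.

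**Figure D4:**
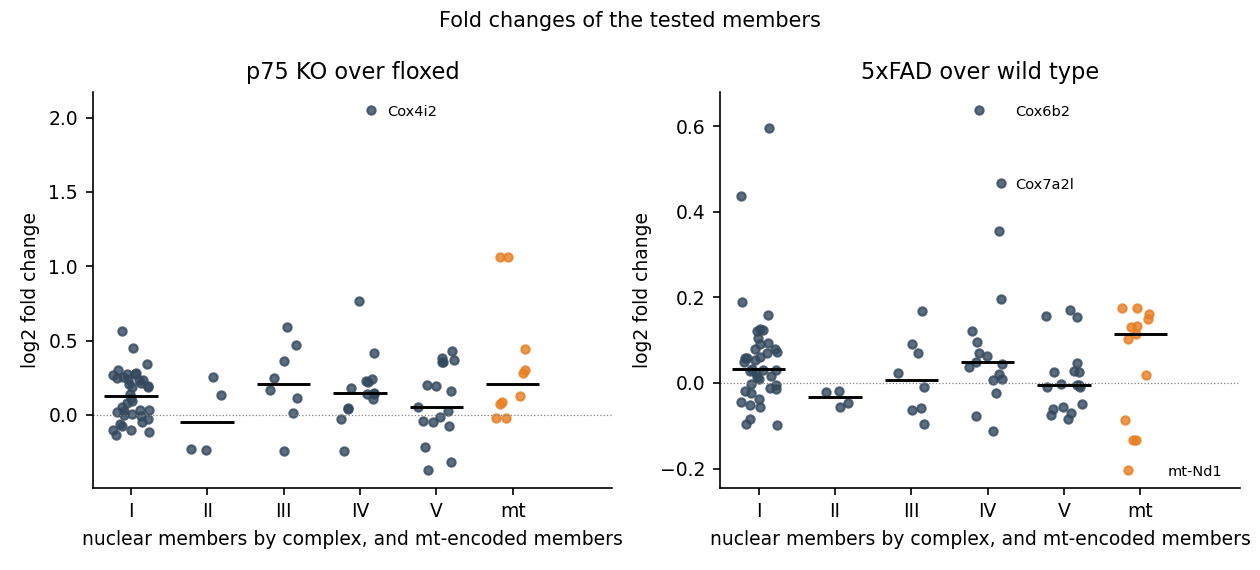
Log2 fold change of each tested member, p75 knockout over floxed on the left and 5xFAD over wild type on the right, for nuclear members by complex and for mt-encoded members; lines are medians. The scales differ: in the 5xFAD table members lie between -0.20 and 0.64, in the p75 table between -0.37 and 2.05, and none was called.

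The mt-encoded members took 3.67% ± 0.244 of the counts in 5xFAD libraries and 3.42% ± 0.111 in wild-type libraries, and the nuclear members 0.696% ± 0.0486 and 0.698% ± 0.0521 (SD, n = 4 each). The ratio of mt-encoded to nuclear counts was 5.01, 5.47, 5.15 and 5.49 in 5xFAD libraries and 4.88, 4.47, 5.58 and 4.80 in wild-type libraries. Wild-type replicate 3 was the highest of all 8, so the groups overlapped. The mean log2 ratio differed by 0.10 (2.40 in 5xFAD and 2.30 in wild-type libraries), against a pooled SD of 0.105. The difference was 0.06 without wild-type replicate 2, 0.16 without wild-type replicate 3 and 0.01 when taken from mean log2 CPM over the members.

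Cox7a2l came closest to a call. It encodes SCAF1, a protein linked to supercomplexes of complexes III and IV. It had 108, 109.7, 87.5 and 94.6 CPM in 5xFAD libraries and 72.9, 88.7, 64.8 and 63.1 CPM in wild-type libraries. The groups overlapped only through wild-type replicate 2 and 5xFAD replicate 3. All 4 5xFAD libraries lay above the wild-type mean of 72.4 CPM. The log2 fold change was 0.47 (SE 0.12; edgeR unadjusted p = 0.00238, adjusted p = 0.0598). It was called by DESeq2 (adjusted p = 0.00868) and limma-voom (adjusted p = 0.0493). edgeR also called it without a filter (adjusted p = 0.0386; 2.31% of genes called), without wild-type replicate 2 (0.00976; 2.7% of genes) and without 5xFAD replicate 3 (0.0465; 3.2% of genes). Over its 20 alternatives the adjusted p ranged from 0.000174 to 0.166, and 9 of them called it. The libraries left out in the calls above are those through which the groups overlapped. Leaving out any other library, other scaling or a minimum mean CPM of 5 gave no call. In the p75 table Cox7a2l had a log2 fold change of -0.03 (SE 0.39).

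Among the mt-encoded genes mt-Nd1 alone had groups that did not overlap, and it was lower in 5xFAD (4.47% of all genes parted in that direction). It had 3058, 3274, 2904 and 3028 CPM in 5xFAD libraries and 3476, 3652, 3694 and 3296 CPM in wild-type libraries, with a log2 fold change of -0.20 (SE 0.07; edgeR adjusted p = 0.161). It passed the test with DESeq2 (adjusted p = 0.0237; 0.0219 to 0.34 over its 20 alternatives). As a share of mt-encoded counts it made up 8.33% ± 0.167 in 5xFAD and 10.3% ± 0.402 in wild-type libraries. The other abundant mt-encoded genes had fold changes above 0, none called: mt-Nd6 and mt-Nd5 0.18 each, mt-Nd4 0.15, mt-Co1 and mt-Cytb 0.13 each, and mt-Nd2 0.115. mt-Co1 averaged 14494 ± 705 CPM in 5xFAD and 13215 ± 476 CPM in wild-type libraries.

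Among the nuclear members Ndufv3, an accessory subunit beside the NADH site of complex I, was higher in every 5xFAD library than in every wild-type library (6.61% of all genes parted in this way). It had 58.9, 55.6, 51.6 and 54.4 CPM in 5xFAD libraries and 47.3, 48.7, 48.2 and 49.1 CPM in wild-type libraries, with a log2 fold change of 0.19 (SE 0.06; edgeR adjusted p = 0.135). Cox6b2, known as the testis isoform of subunit 6b, had 12.4, 10.4, 6.57 and 7.58 CPM in 5xFAD libraries and 5.77, 5.27, 7.46 and 5.32 CPM in wild-type libraries. 5xFAD replicate 3 alone fell within the wild-type range (log2 fold change 0.64, SE 0.21, edgeR adjusted p = 0.165).

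**Figure D5:**
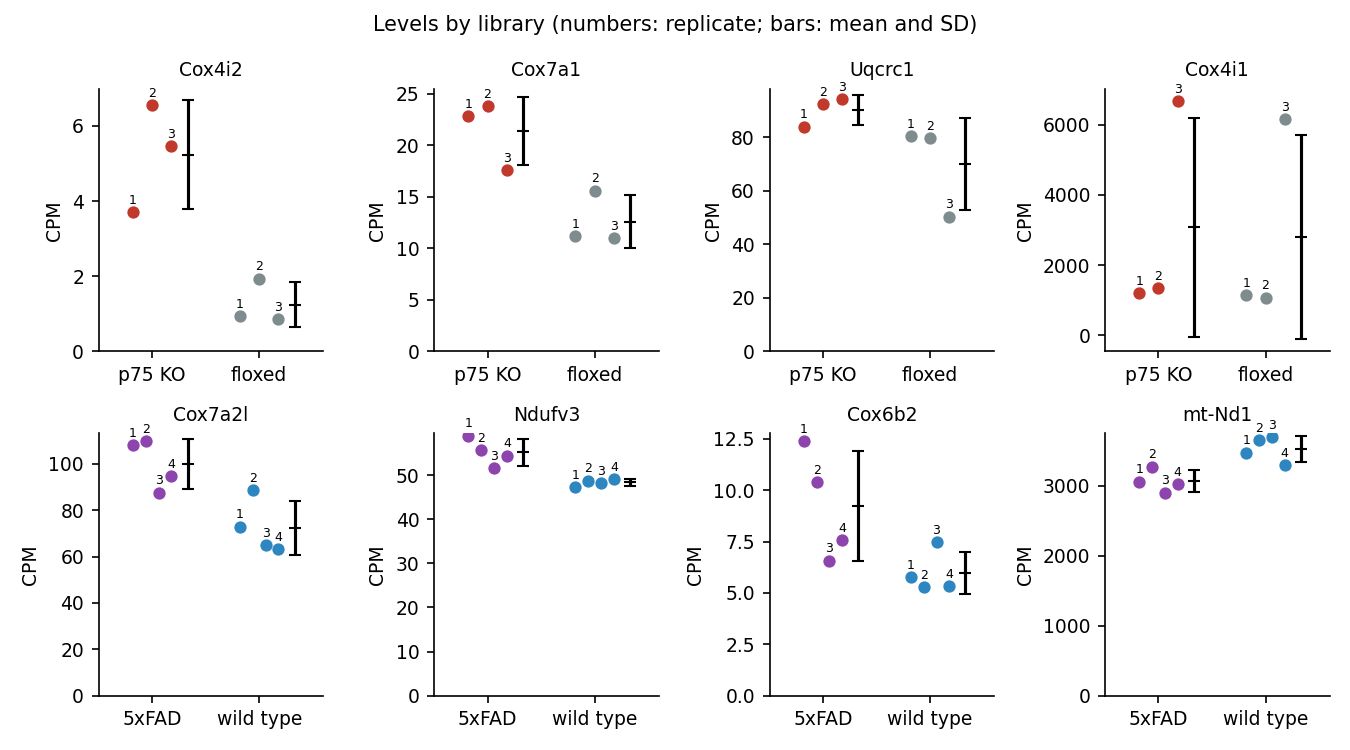
Level by library (CPM, axes from 0 or just below) of 4 members in the p75 table (upper row) and 4 in the 5xFAD table (lower row); numbers are replicates, bars mean and SD. Cox4i2 and Cox7a1 are higher in each knockout library, Cox4i1 follows replicate 3 in both genotypes, and mt-Nd1 is lower in each 5xFAD library.

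Other named members had small differences, none called. Cox4i1 averaged 264 ± 20.8 CPM in 5xFAD and 255 ± 15.1 CPM in wild-type libraries, and Atp5b, the catalytic beta subunit of complex V, 892 ± 45.5 and 939.6 ± 55.6 CPM. Sdha averaged 238 ± 6.92 and 247 ± 5.93 CPM. All 4 subunits of complex II lay below 0, at -0.02 to -0.06. The tissue-restricted isoforms Cox6a2, Cox7a1 and Cox4i2 averaged 0.951 to 2.55 CPM in 5xFAD and 0.96 to 2.37 CPM in wild-type libraries, and Cox8b, Cox7b2 and Cox8c were at or near 0.

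Pan-neuronal markers of the same libraries were higher in 5xFAD. Of 15 pan-neuronal markers, 12 were called higher in 5xFAD (median log2 fold change 1.36), among them Syt1, Tubb3 and Slc17a6, and 0 lower; beside them the 87 nuclear members had a median of 0.02. Of 8 Schwann markers 0 were called (median 0.72), and their sums overlapped between genotypes. Of 5 satellite glia markers Gja1 was called lower (-0.59, SE 0.11). The list as a whole summed to 499.9 to 789.6 CPM in 5xFAD and 406 to 642 CPM in wild-type libraries. The 5 endothelial markers, 0 of them called, summed to 381 to 629.9 CPM in 5xFAD and 619 to 835 CPM in wild-type libraries. The part of these markers in the members' values was not tested. Of 17 glycolysis genes, Eno2, the neuronal enolase, was called higher (0.35, SE 0.07), and Pkm, the pyruvate kinase, and Pfkl, the liver-type phosphofructokinase, were called lower (-0.57, SE 0.12, and -0.45, SE 0.10). Of 82 mitochondrial ribosomal proteins Mrps6 was called lower (-0.40, SE 0.10). No gene was called among 51 assembly factors, 17 genes of the citric acid cycle, 28 of mtDNA maintenance and expression, 8 carriers and 11 regulators of mitochondrial biogenesis. In the p75 table none of these lists held a called gene.

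Replicates 3 and 4 of the 5xFAD table lay below replicates 1 and 2 of both genotypes for 21 of 87 nuclear members (8.77% of all genes) and above for 0 (9.42%). For mt-encoded members it was 1 of 13. The labels name no batch for these replicates, so this split follows the counts and replicate numbers only. With it as a batch term, edgeR called 4 members beside 11.8% of genes. They were Cox7a2l (log2 fold change 0.47, adjusted p = 0.000174), mt-Nd1 (-0.20, adjusted p = 0.0219), mt-Nd6 (0.17, adjusted p = 0.0275) and Ndufv3 (0.19, adjusted p = 0.0414). Over their 20 alternatives the adjusted p ranged from 0.0275 to 0.415 for mt-Nd6 and from 0.0414 to 0.548 for Ndufv3. In replicates 1 and 2 alone 6 members were called, all higher, beside 12.8% of genes: Cox7a2l, Uqcrq, Cox6b2, mt-Nd2, mt-Co1 and mt-Nd4. In replicates 3 and 4 alone Cox7a2l was called (0.51, adjusted p = 0.00151), beside 4.8% of genes.

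Promoters of nuclear members were searched for motifs known from respiratory genes. RefSeq (GRCm38.p6) gave 300 bases around the start of 69 of 106 nuclear symbols. The motif of NRF1 (nuclear respiratory factor), the ETS-type motif CCGGAAG bound by GABP and the YY1 motif AAGATGG were searched on either strand. At least 1 of the 3 was in 56.5% of the 69 member promoters and in 5414 of 27025 promoters of all genes (32.6% of 11277 genes tested in the 5xFAD table). NRF1 was in 24.6% of members and 5.19% of all genes (10.7% of the genes tested in the 5xFAD table), CCGGAAG in 24.6% and 9.93% (18.7%), and AAGATGG in 15.9% and 7.28% (8.05%). A longer YY1 motif that contains the shorter one was in 5.8% and 0.755% (1.65%). A match is a description of the sequence, not a binding site. The NRF1 motif was in 6 of 15 promoters of complex V and 1 of 13 of complex IV. Cox7a2l, Ndufv3, Cox7a1 and Cox6b2 held none of the motifs in this window. A link between motifs and levels was not tested. The promoters of Uqcrc1, with groups apart in the p75 table, and of Ndufb4, which was 8.06-fold higher in replicate 3, are shown with NRF1 matches in capitals.
Uqcrc1 (chr9:108936398-108936697, plus strand): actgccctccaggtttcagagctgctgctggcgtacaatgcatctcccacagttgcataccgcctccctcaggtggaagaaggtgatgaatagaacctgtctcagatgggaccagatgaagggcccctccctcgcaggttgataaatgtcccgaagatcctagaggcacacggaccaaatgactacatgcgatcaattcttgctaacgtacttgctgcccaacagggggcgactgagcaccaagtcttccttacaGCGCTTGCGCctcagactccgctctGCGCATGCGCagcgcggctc
Ndufb4 (chr16:37654319-37654618, minus strand): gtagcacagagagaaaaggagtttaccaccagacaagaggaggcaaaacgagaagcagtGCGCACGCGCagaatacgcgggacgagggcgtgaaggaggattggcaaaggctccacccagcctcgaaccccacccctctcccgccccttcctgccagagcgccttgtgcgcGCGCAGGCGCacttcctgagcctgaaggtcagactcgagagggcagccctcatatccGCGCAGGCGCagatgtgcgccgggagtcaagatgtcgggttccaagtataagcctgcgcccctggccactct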

How the data were processed

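Both deposited tables give raw counts, whole numbers for each gene with no normalization evident in them. The highest values of the p75 table lie just under 65536 in replicates 1 and 2, so large counts there may be compressed. The build is GRCm39 per the submitters' processing notes. Aligner, counting tool and use of strand: not given in the sources used here. Total RNA came from Trizol extraction followed by an RNeasy column kit, per the labels' protocols. The knockout columns of the p75 table were matched to knockout samples by number and by elimination.

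Members and gene lists were chosen with earlier results of these data known, so no p-value over a list is given. Each table was fitted alone in R 4.3.3 with edgeR 4.0.16 (filterByExpr, TMM, robust glmQLFit and glmQLFTest, no covariates) and Benjamini-Hochberg adjustment over 11890 and 15845 genes, with a threshold of 0.05. SE is the log2 fold change divided by the root of F. CPM use TMM-scaled library sizes. Near-identical copies were found with blastn 2.17.0 in GENCODE M21 transcripts (GRCm38), which gave no coordinates here. The code was tested on simulated data.

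The rule for named genes took the 13 mt-encoded genes, the Sdh genes, a set of isoforms and regulatory members, up to 3 genes of each other list by smallest p, and, for each nuclear complex and table, 3 members (called ones by size, then smallest p) and the most abundant member. Ndufs8 and Ndufb4 fall outside it and were named after their values were seen.

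In the p75 table, the deviations of same-numbered libraries from their group means had correlations of 0.344, 0.3105 and 0.581, all over 0.1. Between replicates 1 and 2 the cross-number correlations were 0.375 and 0.445, so equal numbers did not stand out as pairs there. The replicate number entered as a block in an alternative only. Batch terms, also alternatives, follow replicate splits that no label names as a batch. The main test had no covariate, so its SE include the spread between replicates. For Cox4i1 the SE was 0.90 in the main test and 0.18 with the block. Alternatives were DESeq2 1.42.0 scaling and test, upper-quartile and total-count scaling, TMM without mt-encoded genes, limma-voom (limma 3.58.1), no filter, a minimum mean CPM of 5, the replicate block, batch terms, subsets of replicates, and each library left out. 2 alternatives were chosen after seeing the data: p75 counts corrected for a ceiling at 65536, just above their highest values, and members without near-identical copies.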

Additional observations from a re-analysis of the deposited data

Results flagged for a closer look

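Of 86 groups of 4 libraries examined for a sample far from the others, 1 had one, where chance flags about 1 in 20 groups. Uqcrfs1, the Rieske iron-sulphur protein of complex III, stood at 78.1 CPM in wild-type replicate 2, the highest of its group, where the other 3 wild-type libraries had 69.8 to 70.5 CPM. The 5xFAD libraries had 64.8 to 70.8 CPM.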

How the results depend on the processing

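No member was called in the p75 table under any of the 19 alternatives. All genes called there numbered 6 with DESeq2 and in replicates 1 and 2 alone, and 1 with the replicate block or with replicate 3 as a batch term. Leaving out each library in turn, the nuclear median ranged from -0.23 to 0.39, the mt-encoded median from -0.06 to 0.63 and the log2 ratio difference from -0.68 to 0.74 (main value -0.10), so both signs occurred. In the 5xFAD table members called numbered 1 with limma-voom, without a filter and in replicates 3 and 4 alone, 2 with DESeq2, 4 with the batch term, 6 in replicates 1 and 2 alone, and 0 to 1 leaving out each library. All genes called numbered 1028 with DESeq2, 1866 with the batch term, 2053 in replicates 1 and 2 alone, and 237 to 516 leaving out each library. The mt-encoded median ranged from 0.0254 to 0.164 leaving out each library. The cause of these changes was not tested. In the 5xFAD table equal numbers correlated by 0.118, 0.288, 0.389 and 0.0676. 5xFAD replicate 1 correlated more with wild-type replicate 2 (0.315), and 5xFAD replicate 4 more with wild-type replicate 3 (0.372). For 5xFAD replicates 2 and 3 the equal number gave the highest value. Equal numbers thus did not stand out throughout and were not taken as pairs. With the replicate block 1622 genes and 2 members (Cox7a2l and mt-Nd1) were called. The block changed no call of a member in the p75 table. No named member reversed while called; uncalled values changed sign 80 times in the p75 table (25 of 37 genes) and 44 times in the 5xFAD table (17 of 40 genes).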
